A study of Mus musculus with 30 samples.

Results

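The genes described here are inputs to and outputs of the mTORC1 kinase: the TSC complex and Rheb, the Rag GTPases with Ragulator, the GATOR complexes with folliculin, the sestrins, the PI3K-AKT and LKB1-AMPK branches, and the proteins through which mTORC1 acts on translation and lysosomes. They were chosen by symbol, as a list of 40 genes. Of these, 36 genes had a probe on the array (54 of 25697 probes, which carry 16593 gene symbols in all), and Rps6kb1, Prkaa1, Eif4g1 and Lamtor5 were not analysed here. Akt1, Lamtor3, Rraga and Tfeb were not detected on any of the 30 arrays, and 23 members were detected on all 30. A probe was called detected where its detection p-value, which sets it against the negative control beads of its array, was under 0.05.

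mTORC1 is a protein kinase that drives protein synthesis and restrains autophagy when growth factors, amino acids and energy are all sufficient. Growth factors act through PI3K and AKT, which switch off the TSC complex and so free the GTPase Rheb to activate mTORC1; amino acids act through the Rag GTPases, which bring mTORC1 to the lysosome; low energy acts through LKB1 and AMPK, which oppose it. The drug rapamycin binds FKBP12 and the pair inhibits mTORC1, and most of this control is by phosphorylation and protein binding, which mRNA levels do not measure.

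The study profiled whole kidney, brain and heart of 10 male wildtype C57BL/6JRj mice on Illumina BeadChips, 1 array for each tissue and mouse. In every tissue there were 4 control mice of 25 weeks, 2 control mice of 25 months and 4 mice of 25 months given rapamycin from 13 months of age, for over 12 months. The mice had been randomised to the drug or its vehicle and stayed on their diets throughout, and no dose is given in the labels. Titles and age labels disagree about which controls are old, and the age labels were used here. C4b, a complement gene known to rise with age, was higher in the 25-month than in the 25-week controls in brain by 2.23 ± 0.12 on the log2 scale (SE, adjusted p = 1.51e-06). In heart it was higher by 1.95 ± 0.22 (adjusted p = 0.00198). In kidney it was higher by 1.57 ± 0.29 without 1 array of low signal described below (adjusted p = 0.00931). On all 10 kidney arrays the difference was 1.57 ± 0.54, with an adjusted p of only 0.534.

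Signal is given below as normalised log2 intensity, errors after ± are standard errors of limma's linear model unless marked SD, and a difference passed the test where its p, adjusted by Benjamini-Hochberg across every tested probe, was under 0.05. The labels name a separate mouse for each array of a tissue, so p-values within a tissue measure the spread between mice. Only 2 mice were in the 25-month control group. Tests between tissues took the arrays of 1 mouse as separate, with no block for the mouse. The kidney array of rapamycin mouse 2 stood apart, with 9989 probes detected against 11962 to 12777 on the other kidney arrays and a correlation of 0.8585 against 0.9823 to 0.9921. Kidney results are therefore given with and without it. Tissue identity was read from defining markers in the 25-week controls. The proximal tubule transporter Slc34a1 had a signal of 14.1 in kidney, 4.47 in brain and 4.71 in heart. The neuronal Syt1 had 11.43 in brain, 4.39 in kidney and 4.4 in heart. The cardiac myosin Myh6 had 13.88 in heart, 4.77 in kidney and 4.57 in brain. Not every listed marker did so: the neuronal Snap25 and Nefl were detected on none of these arrays, and Slc17a7 and Stmn2 were detected in heart as well as brain.

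The sequences around start sites of the genes are shown first. They are given for the Rag GTPases, because Rragb and Rragd carry the results that follow, and for members that share a motif. RefSeq (GRCm38.p6) gave promoters of 36 of the 40 members, each taken from 250 bases before to 50 after a start site, 48 promoters in all. CACGTG, the core recognised by basic helix-loop-helix factors such as TFEB and MYC, was found in 10 of 48 promoters (20.8%), against 7.15% of 32851 promoters of all genes. It reads the same on both strands. The Rragb promoter (chrX:153139708-153140007, + strand) held 3 copies, the Rragd promoter (chr4:32982748-32983047, + strand) held none, and a 60-base stretch of the Rragc promoter (chr4:123917294-123917353, + strand) held the single copy there. The capitals mark CACGTG.
Rragb: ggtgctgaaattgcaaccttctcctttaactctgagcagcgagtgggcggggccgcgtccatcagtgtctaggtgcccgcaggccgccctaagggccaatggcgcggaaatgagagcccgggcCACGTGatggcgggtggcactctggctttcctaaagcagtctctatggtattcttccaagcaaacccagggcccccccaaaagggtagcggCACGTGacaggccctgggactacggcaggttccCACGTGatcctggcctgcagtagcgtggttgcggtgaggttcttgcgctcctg
Rragd: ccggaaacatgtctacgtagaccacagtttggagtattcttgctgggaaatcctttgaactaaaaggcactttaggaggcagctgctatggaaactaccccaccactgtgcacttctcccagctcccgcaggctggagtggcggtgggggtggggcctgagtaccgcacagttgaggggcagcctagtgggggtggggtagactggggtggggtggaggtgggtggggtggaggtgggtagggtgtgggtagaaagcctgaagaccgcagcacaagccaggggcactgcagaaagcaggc
Rragc: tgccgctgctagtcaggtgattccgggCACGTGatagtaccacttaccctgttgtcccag

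The other promoters with the motif were those of Eef2k, Eif4e, Eif4g1, Fnip1, Lamtor1, Lamtor4, Rheb and Tbc1d7. Windows of 60 bases around it are shown for 5 of them, from several arms of the pathway. They include folliculin's partner Fnip1 (chr11:54438077-54438136, + strand), the Ragulator anchor Lamtor1 (chr7:101905742-101905801, + strand) and the kinase of elongation factor eEF2 Eef2k (chr7:120842773-120842832, + strand). The others are the TSC subunit Tbc1d7 (chr13:43171522-43171581, - strand) and Rheb (chr5:24842425-24842484, - strand), which belong to the same arm.
Fnip1: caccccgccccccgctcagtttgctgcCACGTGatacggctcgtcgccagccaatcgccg
Lamtor1: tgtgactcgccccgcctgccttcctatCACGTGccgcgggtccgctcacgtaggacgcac
Eef2k: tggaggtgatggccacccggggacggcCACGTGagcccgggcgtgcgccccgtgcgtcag
Tbc1d7: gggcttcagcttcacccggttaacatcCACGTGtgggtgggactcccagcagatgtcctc
Rheb: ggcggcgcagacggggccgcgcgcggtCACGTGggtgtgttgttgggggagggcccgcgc
These matches describe letters in a window and say nothing about binding. The longer CLEAR palindrome known as a TFEB element, which contains CACGTG, and the ATF4-type element TGATGCAA were each found in 0 of 48 promoters, against 0.326% and 0.895% of all promoters. The FOXO-type element TGTTTAC was found in 3 of 48 (6.25%, in Akt1, Sesn1 and Stk11) against 3.65%; all were searched on both strands. In Sesn1, whose tissue range is among the widest below, it lay in this stretch (chr10:41810585-41810613, + strand), with the element in capitals.
Sesn1: gaaccttctacTGTTTACcagccttttgg

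How the members differ among organs was read first, in the 25-week controls, whose 12 arrays were normalised together. More members passed the test between tissues than in any other comparison: 27 of 32 tested members passed the test between kidney and brain, 25 between kidney and heart and 25 between brain and heart. Most probes did so too, with 75.5%, 67% and 74.9% of all tested probes called in those comparisons, so the counts are near the background. Of the called members, 17 were higher and 10 lower in kidney than in brain (38.7% and 36.8% of probes), 7 were higher and 18 lower in kidney than in heart (30.3% and 36.7%), and 6 were higher and 19 lower in brain than in heart (35.2% and 39.7%). Every tested member passed at least 1 of the 3 tests (91.6% of probes did), 15 passed all 3 (40.1% of probes), and 14 spanned more than 1 log2 unit (51% of probes). Heart had the highest signal, past the test against both other organs, for 13 of the 32 members, kidney for 6 and brain for 3, where the shares over all probes were 23.6%, 21% and 27.1%. The member median was -0.553 for brain minus heart, beside -0.0574 over all tested probes. Whole organs were compared, so fewer cells of a type and less RNA per cell cannot be told apart. The markers above differ among the same organs, and the part of cell types in the member differences was not tested.

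**Figure D1:**
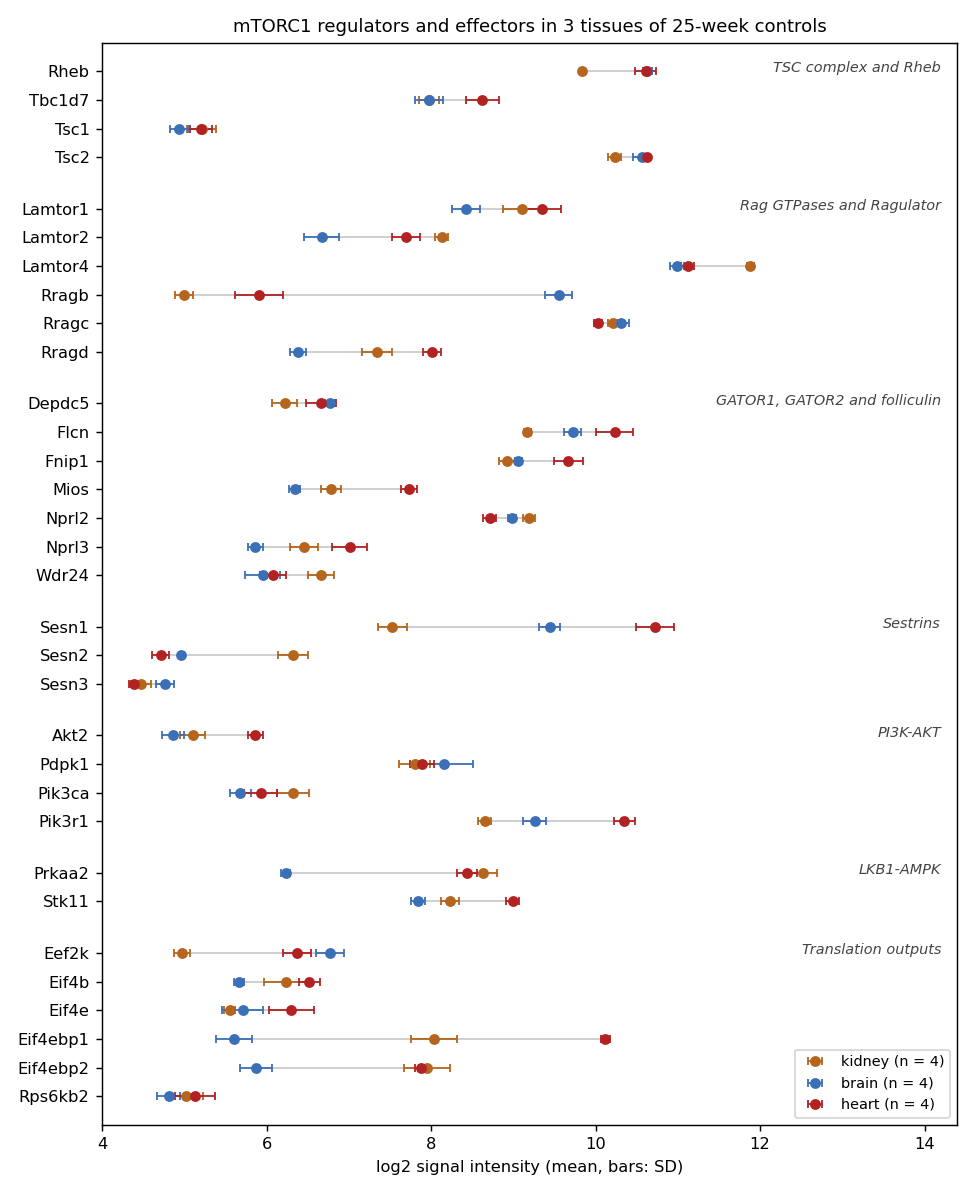
Mean normalised log2 intensity (x axis, with SD over 4 mice) of the 32 tested members, 1 row per gene grouped by role, in kidney, brain and heart of the 25-week controls. Rragb stands out in brain at 9.55 against 5.91 in heart and 5.0 in kidney, and Eif4ebp1 in heart at 10.12 against 8.04 in kidney and 5.60 in brain; only values of the same gene can be compared, since probes differ in brightness.

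Among the Rag GTPases, which work as pairs of Rragb or Rraga with Rragc or Rragd, Rragb had the widest range of all members. Its signal in brain was 9.62, 9.61, 9.64 and 9.31 on the 4 arrays, in heart 5.89, 5.52, 6.03 and 6.22, and in kidney 4.88, 5.02, 5.14 and 4.96, where it was detected on 3 of 4. All brain arrays lay far above all others. Rragb signal was 23.3-fold lower in kidney than in brain (-4.54 ± 0.13, adjusted p = 3.38e-14), 12.4-fold higher in brain than in heart (3.63 ± 0.13, adjusted p = 6.44e-13), and lower in kidney than in heart (-0.91 ± 0.13, adjusted p = 1.33e-05). Without background correction the kidney to brain difference was -2.56, and differences of dim probes shrank in the same way. Rragd ran in another order. Its signal was 8.0, 7.89, 8.15 and 8.01 in heart, 7.17, 7.46, 7.54 and 7.19 in kidney, and 6.37, 6.27, 6.38 and 6.5 in brain. The 3 organs did not overlap, with a brain minus heart difference of -1.63 ± 0.10 (adjusted p = 3.46e-10) and a kidney minus heart difference of -0.67 ± 0.10 (adjusted p = 1.53e-05). Rragc, the close relative of Rragd, stayed within 10.03 in heart, 10.21 in kidney and 10.31 in brain on average.

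Ragulator, the scaffold that holds the Rag GTPases on the lysosome, had its Lamtor2 and Lamtor4 subunits highest in kidney. Lamtor2 averaged 8.13 in kidney, 7.70 in heart and 6.67 in brain, a kidney to brain difference of 1.46 ± 0.11 (adjusted p = 5.81e-09). Lamtor4 averaged 11.88 in kidney, 11.12 in heart and 10.99 in brain, and kidney exceeded brain by 0.89 ± 0.07 and heart by 0.76 ± 0.07. Lamtor1, the subunit that anchors the complex to the membrane, was instead highest in heart, with 9.35 against 9.10 in kidney and 8.42 in brain, and heart and kidney did not differ past the test.

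GATOR1, which turns the Rag GTPases off, and GATOR2, which restrains GATOR1, did not move as blocks. The GATOR1 subunit Nprl3 averaged 7.01 in heart, 6.45 in kidney and 5.86 in brain (brain minus heart -1.15 ± 0.11), while its partner Nprl2 averaged 9.19 in kidney, 8.98 in brain and 8.71 in heart. The third GATOR1 subunit, Depdc5, was lowest in kidney by its brighter probe (6.22, against 6.77 in brain and 6.66 in heart), but its second probe gave 0.19 for kidney minus heart. In GATOR2, Mios was highest in heart (7.73, against 6.78 in kidney and 6.34 in brain) and Wdr24 in kidney (6.66, against 6.08 in heart and 5.95 in brain). Folliculin (Flcn), which activates the Rragc and Rragd arm, averaged 10.23 in heart, 9.72 in brain and 9.17 in kidney, with a kidney minus heart difference of -1.06 ± 0.10. Its partner Fnip1 averaged 9.67, 9.06 and 8.92 in the same order, and brain and kidney did not differ past the test.

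The sestrins, stress-induced proteins that bind GATOR2 and hold mTORC1 back, had opposite orders. Sesn1 signal was 10.71, 10.39, 10.87 and 10.90 in heart, 9.5, 9.41, 9.27 and 9.58 in brain, and 7.73, 7.30, 7.55 and 7.54 in kidney. No array of one organ overlapped another, and kidney was 9.1-fold below heart (-3.19 ± 0.12, adjusted p = 1.85e-12) and 3.76-fold below brain (-1.91 ± 0.12, adjusted p = 6.59e-10). The second Sesn1 probe gave -2.17 and -1.32 for the same differences. Sesn2, known in mammals as a leucine sensor, averaged 6.32 in kidney and 4.96 in brain, a difference of 1.36 ± 0.09 (2.57-fold, adjusted p = 1.27e-09). Sesn2 was detected on no heart array, and in the main processing kidney was at least 2.61-fold above heart (adjusted p = 2.32e-10). Over the alternatives in processing the difference went down to 0.42 for kidney minus brain and to 0.48 for kidney minus heart. It stayed past the test, but its size depends on values near background. Sesn3 was detected on 2 brain arrays and on none of kidney or heart.

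In the growth-factor branch, Pik3r1, the regulatory subunit of PI3-kinase, averaged 10.35 in heart, 9.26 in brain and 8.65 in kidney. Kidney was 3.25-fold below heart (-1.7 ± 0.09, adjusted p = 1.11e-10), and all 3 Pik3r1 probes ran in the same direction. The catalytic subunit Pik3ca was highest in kidney (6.32, against 5.93 in heart and 5.68 in brain). Akt2, the AKT isoform best known for insulin responses, averaged 5.86 in heart, 5.10 in kidney and 4.86 in brain. Pdpk1, the kinase that activates AKT, differed least in this branch, with 8.16 in brain, 7.89 in heart and 7.80 in kidney.

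In the TSC complex and Rheb, no member spanned more than 0.79 log2 units. Rheb, the GTPase that activates mTORC1, averaged 10.63 in brain, 10.61 in heart and 9.84 in kidney, with a kidney minus brain difference of -0.79 ± 0.07, while brain and heart did not differ past the test (0.01 ± 0.07, adjusted p = 0.882). Tsc2, which makes Rheb hydrolyse GTP, averaged 10.62 in heart, 10.56 in brain and 10.23 in kidney, and heart and brain did not differ past the test. Tsc1, its stabilising partner, was dim everywhere, at 5.21 in kidney, 5.20 in heart and 4.93 in brain. The complex's smallest subunit, Tbc1d7, was higher in heart (8.62) than in kidney and brain (7.97 in each).

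In the energy branch, Prkaa2, a catalytic subunit of AMPK, gave 8.53, 8.85, 8.64 and 8.48 in kidney, 8.60, 8.38, 8.46 and 8.31 in heart, and 6.28, 6.23, 6.23 and 6.15 in brain. Kidney and heart overlapped and brain lay below both, 5.28-fold below kidney (kidney minus brain 2.40 ± 0.09, adjusted p = 1.2e-12) and 4.63-fold below heart (adjusted p = 3.93e-12). A second, dimmer Prkaa2 probe gave 0.41 for kidney minus brain and -0.66 for brain minus heart. Stk11 (LKB1), which activates AMPK, averaged 8.99 in heart, 8.23 in kidney and 7.84 in brain, with a brain minus heart difference of -1.15 ± 0.08 (adjusted p = 2.57e-09).

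The outputs on translation included the second member with a range above 4 log2 units. Eif4ebp1, a repressor of the cap-binding factor eIF4E that mTORC1 inactivates, gave 10.11, 10.04, 10.17 and 10.16 in heart, 7.76, 8.31, 8.25 and 7.82 in kidney, and 5.81, 5.68, 5.62 and 5.30 in brain. Brain was 22.9-fold below heart (-4.52 ± 0.13, adjusted p = 5.54e-14), and kidney lay between, 5.41-fold above brain and 4.23-fold below heart. Its relative Eif4ebp2 gave 7.91, 8.36, 7.77 and 7.77 in kidney, 7.87, 7.77, 7.98 and 7.89 in heart, and 5.73, 6.07, 6.02 and 5.66 in brain. Kidney and heart overlapped (0.07 ± 0.13, adjusted p = 0.641), and brain was 4.24-fold below kidney (adjusted p = 6.14e-10). Both repressors were lowest in brain. Eef2k, which slows elongation, went the other way, averaging 6.77 in brain, 6.37 in heart and 4.97 in kidney, and kidney was 3.48-fold below brain (-1.80 ± 0.10, adjusted p = 1.95e-10). It was detected on only 2 of the 4 kidney arrays, so the fold rests on values near background, and without background correction the difference was -0.62. Eif4e averaged 6.30 in heart, 5.71 in brain and 5.55 in kidney, with brain and kidney not apart past the test, and the helicase cofactor Eif4b 6.52, 5.66 and 6.24. Rps6kb2, an S6 kinase, was near background, at 5.13, 4.81 and 5.02.

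The effect of age was read as the 25-month against the 25-week controls within each tissue. No member changed past the test in any tissue. In kidney 0 of 31 members were called on all 10 arrays, where 0.0942% of probes were, and 0 of 31 without the low array, where 9.63% were; in brain 0 of 32 against 0.85%, and in heart 0 of 30 against 0.624%. At an unadjusted p under 0.05 there were 1, 6, 3 and 3 members in these 4 comparisons, against 6.34%, 25.8%, 12.6% and 12.5% of probes. The member medians were -0.0219 in kidney, -0.0227 without the low array, 0.0551 in brain and 0.0081 in heart. The sign of the median turned in kidney without 25-month control 1 or 25-week control 4 (0.0149 and 0.0466, and 0.016 and 0.0455 when the low array was also out), and in heart without 25-month control 1 or 25-week control 2 (-0.0285 and -0.0144).

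Rragd led the age comparison in heart and Eif4ebp2 in kidney. Heart Rragd signal was 7.79, 7.68, 7.95 and 7.80 at 25 weeks and 8.35 and 8.22 in the 25-month controls. The 25-month values lay above every 25-week value, with a difference of 0.48 ± 0.11 (95% interval 0.23 to 0.73) and an adjusted p of 0.0888, not past the test. Kidney Eif4ebp2 signal, on 9 arrays, was 8.01, 8.47, 7.87 and 7.88 at 25 weeks and 7.31 and 7.62 at 25 months. The groups did not overlap, and the difference of -0.59 ± 0.17 had an adjusted p that rounds to 0.05 and was not under the threshold; on all 10 arrays it was -0.60 ± 0.21 (adjusted p = 0.58). The other members with small p-values in kidney without the low array were Rragb at 0.38 ± 0.12 (adjusted p = 0.0676), Pik3r1 at 0.32 ± 0.11 (adjusted p = 0.1) and Sesn1 at 0.31 ± 0.13 (adjusted p = 0.153).

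In brain the age differences were smaller. Rragc signal was 10.46, 10.54, 10.32 and 10.39 at 25 weeks and 10.64 and 10.73 at 25 months, a difference of 0.26 ± 0.09 (adjusted p = 0.251) with no overlap. Eef2k gave 0.28 ± 0.11 (adjusted p = 0.293), Wdr24 -0.30 ± 0.13 (adjusted p = 0.346) and Sesn1 0.20 ± 0.10 (adjusted p = 0.452). The members of brain spanned only -0.3 to 0.28 log2 units. In heart, after Rragd, Eif4b gave 0.48 ± 0.16 (adjusted p = 0.212), Wdr24 -0.35 ± 0.14 (adjusted p = 0.314) and Eif4ebp1 0.45 ± 0.21 (adjusted p = 0.404). Eif4b and Eif4ebp1 were both higher in 25-month control 1 than in control 2, at 7.02 against 6.54 and at 10.73 against 10.11. Without that mouse their differences were 0.24 and 0.14.

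The effect of rapamycin at a matched age was read against the 25-month controls. These are the same 2 mice as in the age comparison. A high or low value in them therefore moves the age and rapamycin differences in opposite directions. No member changed past the test in kidney, with or without the low array, in brain or in heart. The shares of all probes called were 0%, 0%, 0.0276% and 0%, so the members' count of 0 is what nearly every gene showed. At an unadjusted p under 0.05 there were 1, 3, 1 and 2 members, against 3.03%, 11.8%, 9.83% and 11.6% of probes. The member medians were 0.0757 in kidney, 0.00256 without the low array, -0.0469 in brain and -0.106 in heart, where the medians over all probes were 0.00722, 0.00798, -0.00123 and -0.00507. Leaving out 1 array moved the median over -0.0127 to 0.0226 in kidney without the low array, -0.0821 to -0.00116 in brain, where it was nearest 0 without 25-month control 1, and -0.149 to -0.0613 in heart. By the brightest probe of each member, the 95% intervals lay within -0.9 to 0.87 in kidney without the low array. They lay within -0.63 to 0.52 in brain and within -1.53 to 0.7 in heart. In brain the lowest and highest limits were those of Pik3ca and Wdr24, and in heart those of Pdpk1 and Wdr24.

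**Figure D2:**
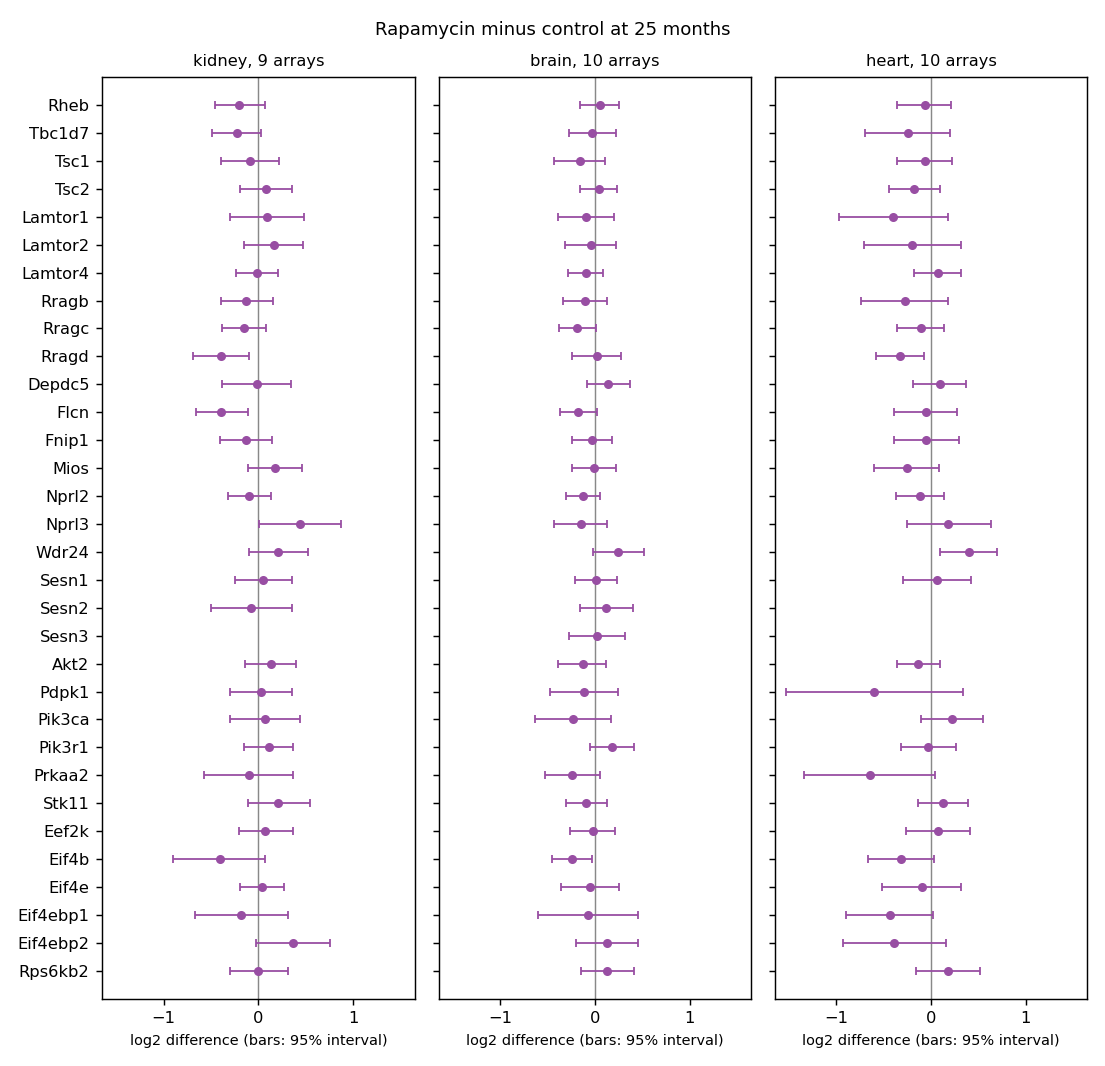
Log2 difference between rapamycin-treated mice and 25-month controls (x axis; points, with 95% intervals from limma) for each tested member, in kidney without the low array, brain and heart. No member passed the test, and the intervals of brain are the narrowest, with limits between -0.63 and 0.52 over all members.

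Flcn and Rragd had the smallest p-values for rapamycin in kidney. Flcn signal on 9 arrays was 9.36 and 9.45 in the 25-month controls and 9.24, 8.90 and 8.92 under rapamycin, a difference of -0.39 ± 0.12 (adjusted p = 0.292) with no overlap, but the second Flcn probe gave 0.02. Rragd signal was 7.25 and 7.35 in these controls and 6.85, 6.93 and 6.93 under rapamycin, a difference of -0.39 ± 0.13 (adjusted p = 0.31), again with no overlap. Nprl3 at 0.44 ± 0.20 (adjusted p = 0.414) and Eif4ebp2 at 0.37 ± 0.18 (adjusted p = 0.449) followed. On all 10 arrays the 4 leading members were Rragd at -0.40 ± 0.16, Nprl3 at 0.71 ± 0.34, Eif4b at -0.84 ± 0.48 and Flcn at -0.31 ± 0.18, each with an adjusted p of 0.825.

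In brain, by the brightest probe of each member, Eif4b led. Its signal was 6.21 and 6.09 in the 25-month controls and 6.02, 5.75, 5.92 and 5.95 under rapamycin. The difference was -0.24 ± 0.10 (adjusted p = 0.468), with no overlap. A second Pdpk1 probe gave a larger difference of -0.46 ± 0.16 (adjusted p = 0.402), also with no overlap. The brighter Pdpk1 probe gave -0.11 ± 0.17 (adjusted p = 0.869). Rragc at -0.19 ± 0.09, Flcn at -0.18 ± 0.09 and Wdr24 at 0.25 ± 0.13 had adjusted p-values of 0.531, 0.542 and 0.543. In heart Rragd led, with 8.35 and 8.22 in the 25-month controls and 7.95, 7.96, 8.05 and 7.88 under rapamycin. The difference was -0.33 ± 0.11 (adjusted p = 0.339) and the groups did not overlap. Wdr24 at 0.40 ± 0.14 (adjusted p = 0.343), Eif4ebp1 at -0.44 ± 0.21 (adjusted p = 0.444) and Prkaa2 at -0.65 ± 0.32 (adjusted p = 0.451) followed. A second, dimmer Prkaa2 probe gave -0.33 ± 0.12 (adjusted p = 0.349), with no overlap.

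The hearts of rapamycin mice 1 and 3 lay apart from their group in several members of different branches. Prkaa2 signal was 7.19 and 6.99 in these hearts against 8.14 and 8.36 in the other treated hearts, 8.19 and 8.44 in the 25-month controls and 8.12 to 8.42 at 25 weeks. Pdpk1 was 6.10 and 6.34 against 7.92 and 7.80 in the other treated hearts and 7.54 to 7.85 in all controls, and its second probe was also low there, at 6.26 and 6.37. Eif4ebp2 was 6.81 and 6.52 against 7.55 and 7.44, and Lamtor2 6.52 and 6.99 against 7.45 and 7.51. The second Prkaa2 probe did not set these hearts apart, with 5.03 and 5.1 against 4.99 and 4.95 in the other treated hearts. These 2 arrays had 12686 and 12526 probes detected, the most of any heart array, and correlations of 0.9831 and 0.9867 with the others, where the remaining hearts lay between 0.9875 and 0.9947.

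Rapamycin-treated mice of 25 months were also compared with the 25-week controls, a contrast in which age and treatment differ together and cannot be told apart. It shares its 25-week mice with the comparison for age and its treated mice with the comparison at matched age. In kidney without the low array, Rragd fell and Pik3r1 rose, and these were the only members past the test in any age or rapamycin comparison. That is 2 of 31 members, where 8.47% of all probes were called, 5.31% higher and 3.16% lower. With the low array 0 of 31 passed (0.369% of probes), in brain 0 of 32 (1.09%) and in heart 0 of 30 (0.944%). At an unadjusted p under 0.05 there were 8, 4, 3 and 3 members, against 26.2%, 13.2%, 12.8% and 17.9% of probes.

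Kidney Rragd signal on the 9 arrays was 7.24, 7.54, 7.62 and 7.26 in the 25-week controls, 7.25 and 7.35 in the 25-month controls, and 6.85, 6.93 and 6.93 under rapamycin. The treated kidneys were below all 6 controls, and the controls of both ages overlapped. Rragd fell by 0.51 on the log2 scale against the 25-week controls (SE 0.11, 95% interval -0.76 to -0.27, 1.43-fold, adjusted p = 0.0195). The low array gave 6.76, on its own scale with all 10 arrays, beside 6.76, 6.83 and 6.83 for the other treated kidneys, and with it the difference was -0.53 ± 0.13 (adjusted p = 0.16). The call was lost without 25-week control 2 (adjusted p = 0.061), rapamycin mouse 3 (0.0645) or rapamycin mouse 4 (0.0575), and with arrays scaled to a common median (-0.37, adjusted p = 0.0603).

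Kidney Pik3r1 signal was 8.83, 8.83, 8.67 and 8.71 in the 25-week controls, 9.07 and 9.08 in the 25-month controls, and 9.16, 9.34 and 9.06 under rapamycin. Kidneys of both 25-month groups overlapped and lay above the 25-week group. Pik3r1 rose by 0.43 ± 0.10 (95% interval 0.21 to 0.64, 1.34-fold, adjusted p = 0.0238), and its second tested probe also passed, at 0.38. With the low array the difference was 0.46 ± 0.13 (adjusted p = 0.186). The call was lost without 25-week control 2, 3 or 4 (adjusted p = 0.0528, 0.0637 and 0.0611) without rapamycin mouse 3 (0.113), and with the replicate number as a block (0.44, adjusted p = 0.057).

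**Figure D3:**
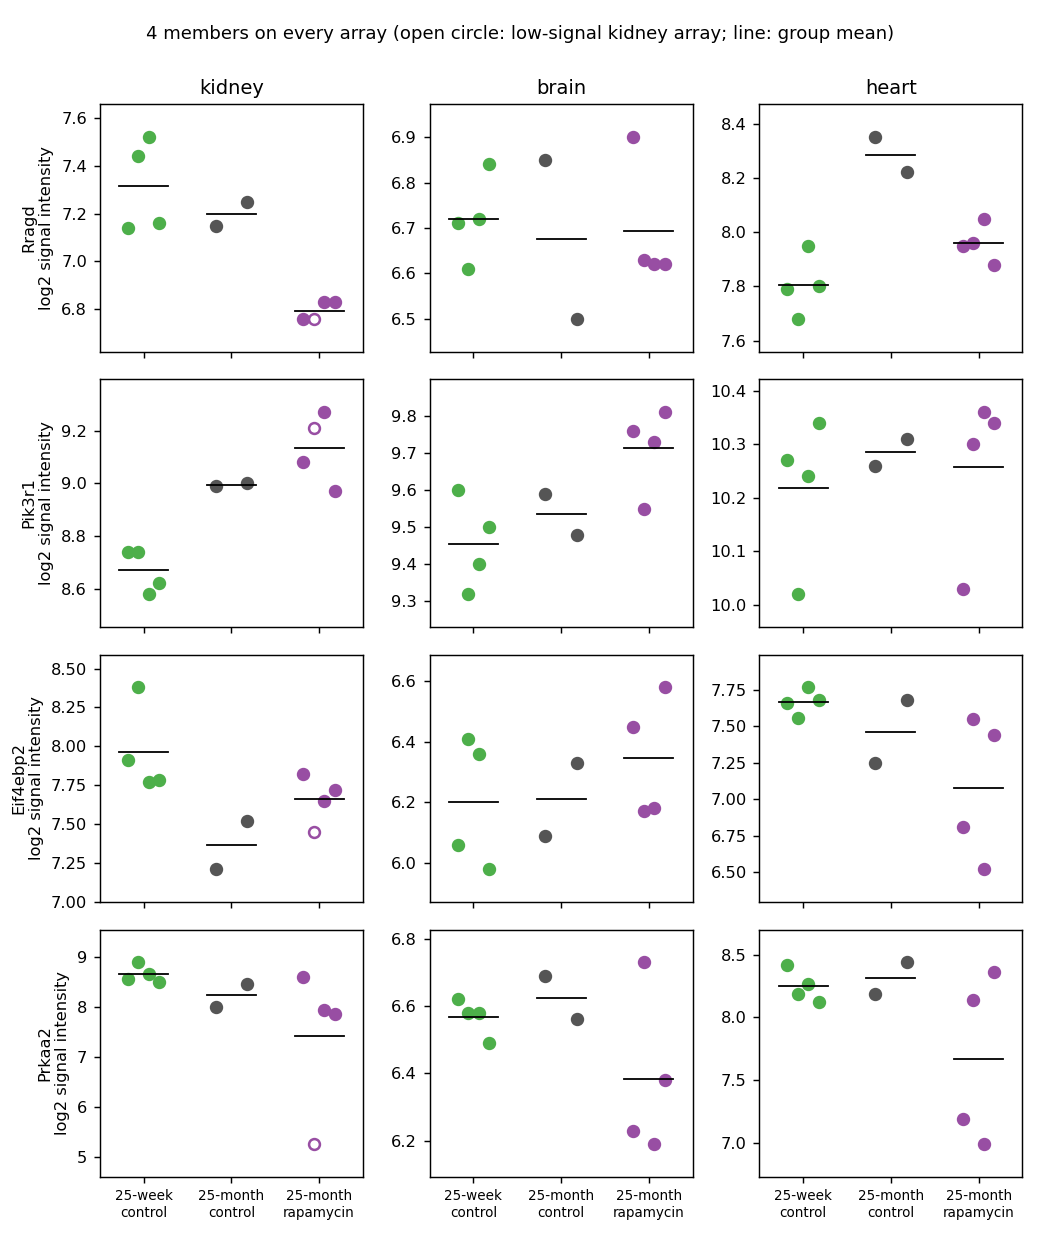
Normalised log2 intensity (y axis) of Rragd, Pik3r1, Eif4ebp2 and Prkaa2 on every array of kidney, brain and heart, by group, with 1 point per mouse, a line at the group mean and an open circle for the low kidney array. Rragd under rapamycin lies below the controls in kidney but not in brain, and Prkaa2 and Eif4ebp2 are spread widely among the treated hearts.

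Cell type markers moved in the same kidneys. The summed linear signal of the detected macrophage markers (10 of 12 listed) ranged over 1520 to 2020 in 25-week controls, 3340 to 4990 in 25-month controls and 3660 to 7730 under rapamycin. The sum of the proximal tubule markers (7 of 7) was 40200 to 42200, 30600 to 37500 and 39400 to 46500, and that of the thick limb and distal markers (6 of 7) was 17900 to 21200, 29600 to 30600 and 11900 to 25300. T and B cell markers (5 of 8) summed to 180 to 187, 189 to 213 and 233 to 468, neutrophil markers (4 of 6) to 188 to 264, 578 to 1780 and 567 to 1050, and matrix markers (4 of 4) to 719 to 807, 1340 to 1550 and 1210 to 1990. Red blood cell markers (2 of 3) summed to 8950 to 12400, 5700 to 10500 and 1080 to 7430. These ranges include the low array, and the part of these cells in the Rragd and Pik3r1 results was not tested.

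Just outside the test in kidney without the low array were Sesn1 at 0.36 ± 0.11 (adjusted p = 0.0718), Eef2k at 0.31 ± 0.11 (adjusted p = 0.0943), Prkaa2 at -0.51 ± 0.18 (adjusted p = 0.102) and Nprl2 at -0.24 ± 0.09 (adjusted p = 0.107). Sesn1 signal was 7.83, 7.38, 7.63 and 7.63 in the 25-week controls, 7.84 and 8.02 in the 25-month controls, and 8.03, 7.98 and 7.92 under rapamycin. By this probe treated and 25-week kidneys did not overlap, while both 25-month groups did. The second Sesn1 probe gave smaller differences, 0.1 in these kidneys and 0.06 in brain. In brain the leading members were Pik3r1 at 0.26 ± 0.09 (adjusted p = 0.217), Eef2k at 0.25 ± 0.09 (adjusted p = 0.229), Sesn1 at 0.21 ± 0.08 (adjusted p = 0.306) and Lamtor4 at -0.13 ± 0.07 (adjusted p = 0.44). In heart Eif4ebp2 at -0.59 ± 0.20 (adjusted p = 0.181) and Tsc1 at -0.25 ± 0.11 (adjusted p = 0.255) led. Prkaa2 at -0.58 ± 0.26 (adjusted p = 0.267) and Tsc2 at -0.21 ± 0.10 (adjusted p = 0.304) followed. The lowest Eif4ebp2 and Prkaa2 values were those of the hearts of rapamycin mice 1 and 3. The second Prkaa2 probe gave -0.04.

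**Figure D4:**
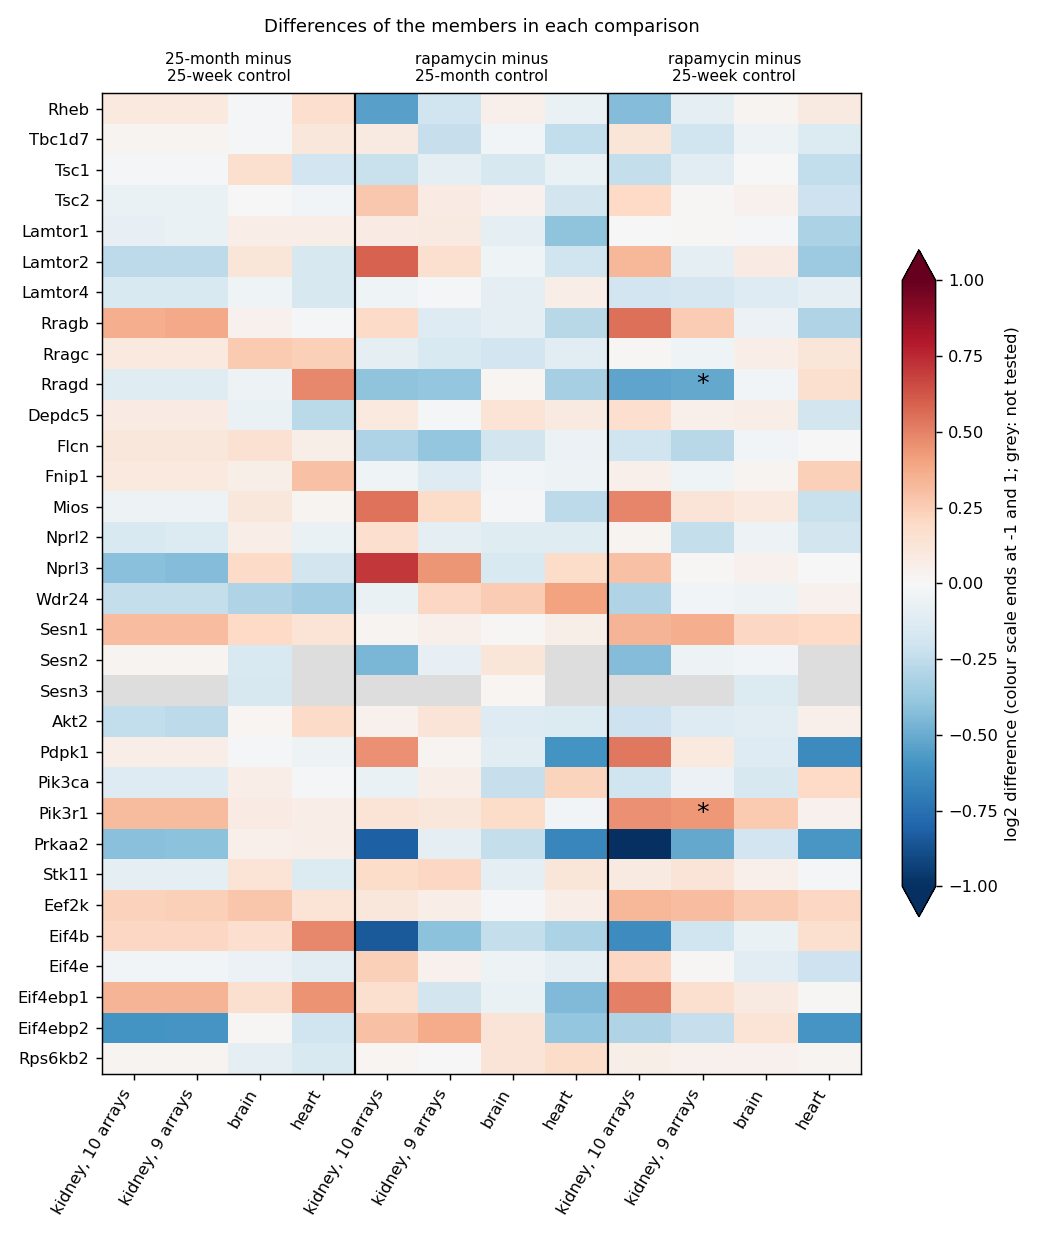
Log2 difference (colour) of each member, in rows by role, in the age and rapamycin comparisons of kidney, kidney without the low array, brain and heart, in columns; grey cells were not tested and stars mark differences past the test. The only stars are Rragd and Pik3r1 in kidney without the low array, rapamycin against 25-week controls.

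Whether a difference varied among the tissues was tested over all 30 arrays. For rapamycin against 25-week controls Rragd was the only member of 32 to pass (limma F test, adjusted p = 0.0271, where 1.52% of probes passed), and without the low kidney array its adjusted p was 0.0151 (4.39% of probes). The kidney difference minus that in brain was -0.47 ± 0.14 and minus that in heart -0.65 ± 0.14. Within the brain fit Rragd differed by -0.03 ± 0.10 and within the heart fit by 0.16 ± 0.09. The call was lost with median scaling (adjusted p = 0.118), without any one of the 4 25-week controls (0.0609, 0.169, 0.106 and 0.054) and without rapamycin mouse 3 or 4 (0.0925 and 0.062). For the age comparison 0 of 32 members varied among tissues past the test (0.791% of probes; Rragd adjusted p = 0.205), although Rragd differed by 0.48 in heart, -0.05 ± 0.12 in brain and -0.12 ± 0.13 in kidney. For rapamycin at matched age 0 of 32 passed (0.00586% of probes; Rragd adjusted p = 0.825). Without the low kidney array, no member passed for age (4.46% of probes; Rragd adjusted p = 0.057) or for rapamycin at matched age (0.0471% of probes).

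Other genes of the same signalling network, a list of 44 of which 40 had a probe, were read alongside. In kidney without the low array 5 of 36 tested passed the age test, where 9.63% of all probes did: Sgk1, a PI3K-dependent kinase activated through mTORC2, rose by 0.82 ± 0.12 (adjusted p = 0.00379), Ddit4 (REDD1), which activates the TSC complex, by 0.61 ± 0.13 (adjusted p = 0.0171) and its relative Ddit4l by 0.63 ± 0.16 (adjusted p = 0.0363). Castor2, a relative of the arginine sensor CASTOR1, fell by 0.70 (SE 0.16, adjusted p = 0.0194) and Stradb, a partner of LKB1, fell by 0.42 (SE 0.11, adjusted p = 0.0324). None of the list passed on all 10 kidney arrays, in brain or in heart for age, and none passed for rapamycin at matched age in any tissue. Under rapamycin against the 25-week controls, 3 of 36 passed in kidney without the low array, where 8.47% of probes did: Sgk1 and Ddit4 were higher (0.79 ± 0.11 each, adjusted p = 0.00184 and 0.00303) and Stradb was lower (-0.43 ± 0.09, adjusted p = 0.0191). In brain 2 of 36 passed, Sgk1 at 0.78 ± 0.15 and Ddit4 at 0.51 ± 0.10 (adjusted p = 0.0261 and 0.029; 1.09% of probes), and in heart 1 of 35, Sgk1 at 0.68 ± 0.12 (adjusted p = 0.0257; 0.944% of probes). Macrophage markers moved with these results as well: their summed signal was 2620 to 2920, 4150 to 4310 and 4180 to 4600 in brains of 25-week controls, 25-month controls and rapamycin-treated mice, and 2810 to 5140, 4720 to 6830 and 4820 to 7100 in hearts, and their part was not tested.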

How the data were processed

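Kidney, brain and heart of 10 mice gave 30 Illumina arrays. Per the file headers, the deposited non-normalised table holds a linear signal intensity for each probe and array, with no background subtracted, and the authors' table also gives a detection p-value for each. A second table deposited by the authors holds background-subtracted intensity and served as an alternative. The submitters' processing notes name GenomeStudio 2011.1. How bead signals were summarised is not given in the sources used here.

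Within each tissue, intensities were corrected with normexp from the negative-control parameters that the detection p-values imply (offset 16), quantile-normalised and put on the log2 scale (neqc in limma 3.58.1, R 4.3.3, with the package data.table, version 1.17.8). Probes detected at p under 0.05 on at least 2 arrays of a fit were tested with lmFit and eBayes, with 1 mean per group and Benjamini-Hochberg adjustment over all tested probes, at an adjusted p under 0.05. The fits tested 13805 probes in kidney, 13651 without the low array, 14473 in brain, 13773 in heart, 15953 in the 25-week tissue comparison and 17062 over all 30 arrays. Each gene was read from its probe with the highest mean over the 30 arrays. Arrays carry no counting depth, so their number limits the precision. Intervals are at 95%.

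Members, lists and tests were chosen with earlier results of these data known. All members could be named. In each age or rapamycin comparison those past the test, or the 4 with the smallest p, are given in full, and for tissues the 12 with the largest difference. Whether replicate numbers pair mice within a tissue was checked from deviations around group means: correlations of the same number in different groups ran from -0.235 to 0.313, and 3 of 24 exceeded 0.1, so the numbers were not treated as pairs. Across tissues, the mouse identifiers in the labels link the arrays of a mouse. Correlations between tissues of 1 mouse in the 25-week controls were -0.0482 to 0.0952. Over all mice they were -0.226 to 0.419, and 10 of 30 exceeded 0.1. The main fits over 30 arrays and over the 12 arrays of 25-week controls had no mouse block. Mouse was a random block in an alternative over 30 arrays. The fits were tested on simulated data. Alternatives were the background correction, scaling, detection filter, moderation, array weights, replicate block, probe choice, the authors' second table, and leaving out each array. The label check used C4b. The members without a probe were not analysed here.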

Additional observations from a re-analysis of the deposited data

Results flagged for a closer look

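Among the 186 groups of 4 mice and members, 15 (8.06%) held 1 array far from the other 3, where chance gives about 1 in 20. Of these, 4 were the low kidney array of rapamycin mouse 2, which was high in Eif4e (6.31, against 5.48 to 5.51 in the other treated kidneys), Nprl2 (10.07, against 8.95 to 9.05), Pdpk1 (9.63, against 7.75 to 8.02) and Tbc1d7 (9.04, against 7.67 to 7.88). In the 25-week kidneys, Nprl2 of mouse 1 was low at 9.13 against 9.26 to 9.28.

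In brain, Depdc5 of 25-week mouse 3 was 7.19 against 7.07 to 7.08, and Rragb of 25-week mouse 4 was 9.5 against 9.78 to 9.81. Both of the other cases in brain fell on rapamycin mouse 1, with Eif4ebp1 at 5.26 against 6.24 to 6.28 and Rragd at 6.9 against 6.62 to 6.63.

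In heart, 25-week mouse 3 was low in Eif4b (6.11, against 6.34 to 6.37) and high in Lamtor1 (9.55, against 9.03 to 9.08). Akt2 of 25-week mouse 4 was 5.78 against 5.61 to 5.63, and Lamtor4 of 25-week mouse 1 was 10.93 against 11.1 to 11.13. Under rapamycin, Nprl2 of mouse 1 was 8.18 against 8.39 to 8.41 and Rragc of mouse 3 was 9.89 against 10.04 to 10.06. These 2 mice are the ones whose hearts were low in Prkaa2, Pdpk1, Eif4ebp2 and Lamtor2.

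The difference of Rragd between rapamycin and 25-week controls varied among the tissues in limma's F test (adjusted p = 0.0271 on 30 arrays, where 1.52% of probes passed). Without the low kidney array the adjusted p was 0.0151 (4.39% of probes), with kidney at -0.51 ± 0.11 on 9 arrays, brain at -0.03 ± 0.10 and heart at 0.16 ± 0.09. The call on 30 arrays was lost with median scaling (adjusted p = 0.118) and without any single 25-week control.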

How the results depend on the processing

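Of the member counts under an alternative, 313 stayed within 1.5 times the main count and 26 moved. The 313 include counts of 0 that stayed 0. For rapamycin against 25-week controls in kidney without the low array, the count held under 13 of 21 alternatives. The count of members whose difference in that contrast varied among tissues held under 7 of 14. Of the differences of single named members, 1401 kept their side of the threshold, 18 gained and 9 lost it, and none changed sign. The tissue counts held, at 24 to 27 members between kidney and brain, 23 to 25 between kidney and heart and 22 to 26 between brain and heart. Kidney without the low array moved most. For age it gave 1 member instead of 0 without background correction (Pik3r1), with median scaling (Rragb), and with detection on at least 4 arrays, trended robust moderation or the replicate block (Eif4ebp2 in each). For rapamycin against 25-week controls it gave 8 members with array weights (Eef2k, Flcn, Nprl2, Pik3r1, Prkaa2, Rragb, Rragd and Sesn1) and 1 with the replicate block (Rragd; Pik3r1 then had an adjusted p of 0.057). With all 10 kidney arrays, array weights gave 1 for age (Eif4ebp2) and the same 8 genes for rapamycin against 25-week controls. Heart gave 1 for age (Rragd) without background correction and with array weights. The number of members whose rapamycin difference from 25-week controls varied among tissues fell to 0 with median scaling. Leaving out 1 mouse, with its 3 arrays, gave 0 to 1 member for that test. Leaving out 1 array at a time gave 0 to 1 for age and 0 to 5 for rapamycin against 25-week controls in kidney without the low array (5 without rapamycin mouse 1: Flcn, Pik3r1, Prkaa2, Rragb and Rragd), and 0 to 2 with it, the 2 being without rapamycin mouse 2. The cause was not tested. With mouse as a random replicate block over 30 arrays (correlation 0.0848), Rragd had an adjusted p of 0.0169. With 2 mice in the 25-month control group the comparisons with it are the least precise, and dim members such as Tsc1, Rps6kb2 and Sesn3 were close to background.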
